A study of Homo sapiens with 6 samples.

Results

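The vitamin D receptor gene VDR and 8 other nuclear receptor genes were followed in MM.1S, a cell line established from a human multiple myeloma. The cells were treated with enzastaurin, which inhibits the kinase PKC beta. Every Affymetrix probe set that the platform annotation pairs with the symbol of 1 of these genes, and with no other symbol, was taken. Of the 9 genes 8 had such probe sets, among 11963 genes in all, and they held 23 of the 19064 probe sets with 1 symbol. None was found for NR1H2. By the RefSeq gene table the genes lie on chromosomes 12 (VDR), 9 (RXRA), 6 (RXRB and PPARD), 17 (RARA and THRA), 19 (NR1H2) and 11 (NR1H3 and ESRRA). The groups were cells given enzastaurin for 3, 6 or 12 h and untreated cells taken at the same times, with 1 array for each, 6 in all. All arrays came from the same line, and no dose is stated in the labels used here. The receptors were chosen by their log2 ratios of enzastaurin over untreated cells on these arrays, so those ratios are given below as a description, with no test.

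Nuclear receptors are transcription factors, most of them switched by a small ligand that enters the cell. VDR binds the active form of vitamin D and works on DNA as a pair with a retinoid X receptor, RXRA or RXRB. The same partners serve the receptors for retinoic acid (RARA), fatty acids (PPARD), oxysterols (NR1H2 and NR1H3) and thyroid hormone (THRA), whereas ESRRA is an orphan receptor that governs mitochondrial genes. Vitamin D and retinoid compounds have been studied as growth inhibitors of myeloma cells.

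Values are MAS5 intensities on a linear scale, and the number of arrays limits their precision. Median intensities lay between 62.2 and 67.6. Plasma cell markers were present: 8 of 8 passed the filter of a geometric mean intensity of 63.3, and their summed intensity was 18121 to 21343 on enzastaurin arrays and 18698 to 24030 on untreated arrays. Of the T and NK cell markers 0 of 7 passed, and of the monocyte markers 0 of 6. The summed intensity of the T and NK cell markers was 196.5 to 231 on enzastaurin arrays and 191 to 218 on untreated arrays. That of the monocyte markers was 126 to 167 on enzastaurin arrays and 106 to 175 on untreated arrays, with LYZ and S100A9 at the floor of 1 on some of them. Single markers of these absent cell types reached 61.4, so values of that size or less are treated here as near background. The mean log2 intensity of 3 ribosomal RNA probe sets was 9.99, 3.79 and 3.02 on the enzastaurin arrays at 3, 6 and 12 h, against 3.39, 11.98 and 9.29 on the untreated arrays.

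The first question was how the transcript of each receptor stood with enzastaurin at each time. VDR stood furthest apart of the receptors at 12 h, where its own gap was widest. At 3 h ESRRA, and at 6 h NR1H3, had a larger log2 ratio on its strongest probe set than VDR on its own. Its strongest probe set, 204254_s_at, had intensities of 341, 269 and 62.1 with enzastaurin at 3, 6 and 12 h, against 559, 504 and 684 in untreated cells. All 3 enzastaurin values lay below all 3 untreated ones, and the 12 h enzastaurin value was the lowest of the 6. The log2 ratios of enzastaurin over untreated were -0.71, -0.90 and -3.46, which corresponds to 1.64-fold lower at 3 h, 1.87-fold lower at 6 h and 11.03-fold lower at 12 h. At 62.1 the last value is close to background, so the size of the 12 h ratio is not exact.

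A second strong VDR probe set, 204255_s_at, had 259, 236 and 101 in enzastaurin-treated cells, against 300, 731 and 564 in untreated cells. Its groups did not overlap either, though the 3 h pair differed by only 0.21 log2 units. Its log2 ratios were -0.21, -1.63 and -2.48, and the largest again came at 12 h.

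The remaining pair of VDR probe sets was weaker and behaved otherwise. Probe set 204253_s_at had 158, 141 and 80.4 in enzastaurin-treated cells, against 93.0, 106 and 115 in untreated cells. Probe set 213692_s_at had 129, 115 and 68.7 in enzastaurin-treated cells, against 97.4, 83.1 and 116 in untreated cells. On both, enzastaurin cells were higher at 3 h and 6 h and lower at 12 h, with 12 h log2 ratios of -0.52 and -0.76. All 4 probe sets thus had their lowest value of all on the 12 h enzastaurin array, and they disagreed on the direction at 3 h and 6 h. Over the 6 arrays, which share the treatment and the times, log2 intensities of the 2 strong probe sets correlated at 0.88 and those of the 2 weak ones at 0.88, while pairs across these correlated at 0.25 to 0.60.

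**Figure D1:**
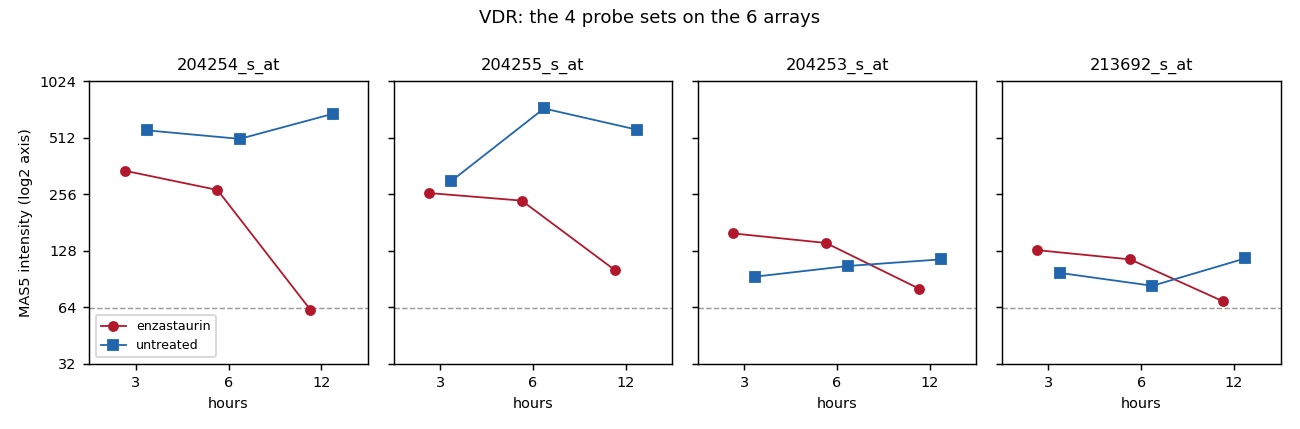
MAS5 intensity on a log2 axis against hours for each of the 4 VDR probe sets, with enzastaurin arrays as red circles, untreated arrays as blue squares and the filter of 63.3 as a dashed line; each point is 1 array. The enzastaurin points of 204254_s_at and 204255_s_at lie below all untreated points, and in every panel the 12 h enzastaurin point is the lowest.

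The mean log2 ratio of VDR on its strongest probe set was -1.69 (moderated SE 0.47, 3 time-matched ratios). It was -0.81 without the 12 h pair, and -0.59 when the median over the 4 probe sets was taken at each time. Among 6838 genes kept by the filter, with 1 probe set each, only 1 gene had a lower ratio than VDR at 12 h, and VDR was 306th from the bottom at 6 h and 499th at 3 h. The 12 h ratios of all kept genes had a median of -0.18 and a range from the 5th to the 95th percentile of -1.32 to 0.90. Ribosomal RNA intensity was low on the untreated 3 h array as well as on the enzastaurin arrays at 6 h and 12 h. On these arrays, in this order, VDR was at 559, 269 and 62.1 on 204254_s_at and at 300, 236 and 101 on 204255_s_at. It was at 93.0, 141 and 80.4 on 204253_s_at and at 97.4, 115 and 68.7 on 213692_s_at. The log2 ratio of 3' to 5' ACTB probe sets, a sign of RNA quality, was 2.004, 0.57 and 0.86 on the enzastaurin arrays and 1.89, 1.16 and 1.60 on the untreated arrays, and the part of these measures in the VDR values was not tested. Of the 8 plasma cell markers, 3 were lower with enzastaurin at 6 h and 12 h by the limma fit described below: TNFRSF17 (log2 ratio -2.05, adjusted p = 0.00165), IRF4 (-1.60, adjusted p = 0.00127) and SDC1 (-1.04, adjusted p = 0.0246). Over all genes 2.08 percent were called lower in that fit. The other 5 did not pass, with log2 ratios from -0.70 for PRDM1 to 0.63 for JCHAIN (adjusted p = 0.0710 in limma). In a bulk extract, fewer cells with a transcript and less of it per cell cannot be told apart.

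The retinoid X receptors, the partners of VDR on DNA, were closer between the groups. RXRA on 202449_s_at had intensities of 64.6, 56.8 and 65.5 in enzastaurin-treated cells, against 67.7, 75.0 and 83.5 in untreated cells. The enzastaurin values all lay below the untreated ones, but by little, with log2 ratios of -0.07, -0.40 and -0.35, and the values lie close to the filter. A dimmer RXRA probe set had log2 ratios of 0.39, -0.79 and -0.76, so it differed in direction at 3 h. RXRB on 209148_at had 144, 141 and 79.7 in enzastaurin-treated cells, against 158, 116 and 199 in untreated cells. These groups overlapped, and the 12 h enzastaurin array again held the lowest value (log2 ratio -1.32, 2.497-fold lower). The other 2 RXRB probe sets had intensities of 58.9 or less on every array, and at 12 h their log2 ratios were 0.80 and -0.30.

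Among receptors that use these partners, the retinoic acid receptor RARA had 131, 124 and 157 on 203749_s_at in enzastaurin-treated cells, against 97.2, 167 and 111 in untreated cells. The groups overlapped, and the log2 ratios of 0.43, -0.44 and 0.50 differed in sign between times. The second RARA probe set above the filter, 216300_x_at, had log2 ratios of 0.47, 0.03 and -0.16. The other 2 RARA probe sets were at 41.7 or less on every array, with log2 ratios of 0.60 and 0.46 at 3 h and of -1.13 and -0.85 at 6 h. The fatty acid receptor PPARD stood on the higher side at the later times. On 37152_at it had 169, 263 and 242 in enzastaurin-treated cells, against 190, 160 and 131 in untreated cells, with log2 ratios of -0.17, 0.72 and 0.88. The 6 h and 12 h enzastaurin values were above every untreated value and the 3 h value was not. Both dimmer PPARD probe sets were also higher at 6 h, with log2 ratios of 1.02 and 0.55, and they disagreed at 12 h, with -0.30 and 0.55.

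The oxysterol receptor NR1H3, also called LXR alpha, had 15.1, 22.8 and 22.6 in enzastaurin-treated cells, against 12.3, 9.94 and 14.6 in untreated cells. Its enzastaurin values were all above its untreated ones, yet every value is near background, so no size is attached to them. The thyroid hormone receptor THRA had 43.1, 65.0 and 41.2 on its strongest probe set in enzastaurin-treated cells, against 49.99, 40.9 and 38.1 in untreated cells. These values overlapped, and 5 of the 6 were near background. The other 3 THRA probe sets were at 39.8 or less. A further 3 probe sets are annotated with both THRA and NR1D1, genes that overlap on opposite strands, and were not used.

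ESRRA, the orphan receptor, gave different pictures on its probe sets. On 1487_at it had 210, 132 and 168 in enzastaurin-treated cells, against 121, 190 and 174 in untreated cells. The groups overlapped, with log2 ratios of 0.80, -0.52 and -0.05. On the dimmer 203193_at it had 59.8, 68.7 and 79.8 in enzastaurin-treated cells, against 47.6, 45.8 and 41.6 in untreated cells. There the enzastaurin values were all higher, with log2 ratios of 0.33, 0.59 and 0.94, and the untreated values were near background.

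**Figure D2:**
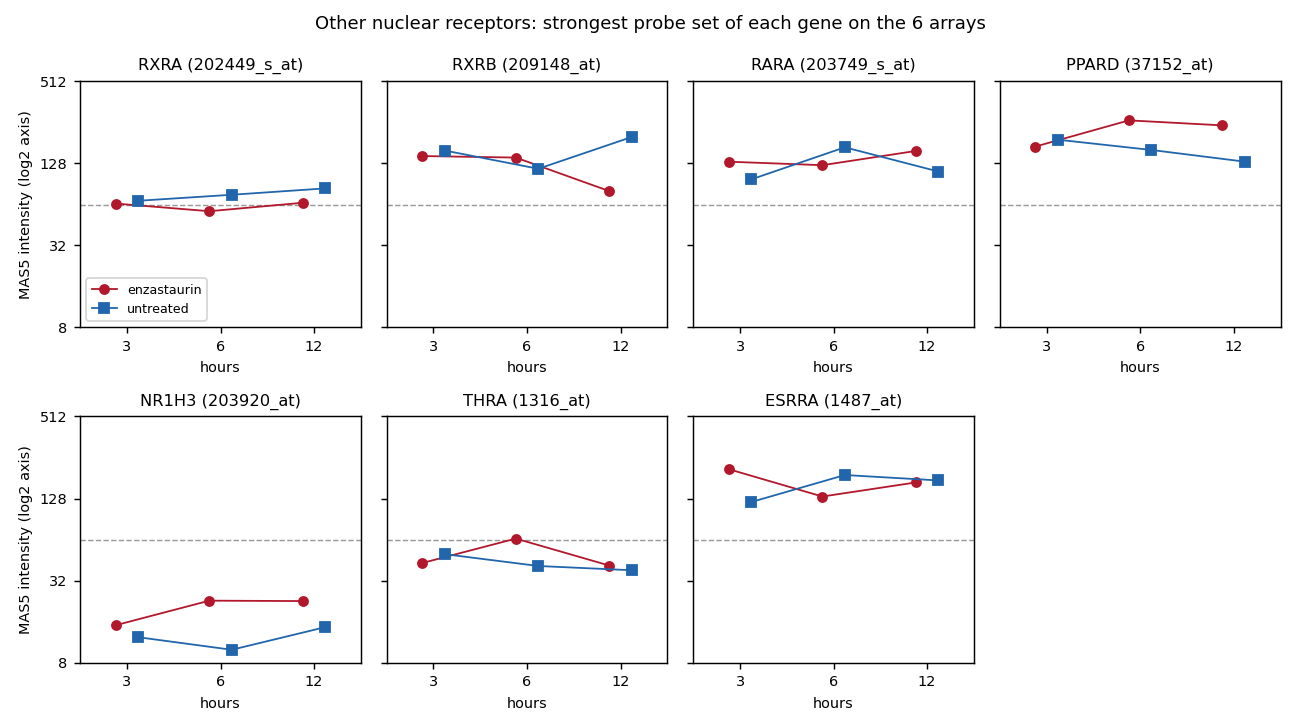
MAS5 intensity on a log2 axis against hours for the strongest probe set of the other 7 measured receptors, with enzastaurin arrays as red circles, untreated arrays as blue squares and the filter of 63.3 as a dashed line; each point is 1 array. RXRB at 12 h is lower with enzastaurin (79.7 against 199), PPARD is higher at 6 h and 12 h, and NR1H3 and THRA lie mostly below the filter.

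Of the 23 probe sets, 3 had every enzastaurin array below every untreated array (both strong VDR sets and 1 of RXRA), 2 had every one above (NR1H3 and 1 of ESRRA), and 18 overlapped. Of the 9 listed genes, 6 passed the filter on low values with at least 1 probe set and entered the fit. Among the 6, VDR and RXRA had all enzastaurin arrays lower, where 7.18 percent of the 6838 genes did, and 0 had all of them higher, where 3.47 percent did. RXRA passed the filter only through the untreated arrays, with a geometric mean of 75.1 there and 62.2 with enzastaurin. At 12 h, 2 of the 6, VDR and RXRB, were at least 2-fold lower with enzastaurin (10.4 percent of all genes), and 0 were at least 2-fold higher (3.88 percent). At 3 h and at 6 h, 0 of the 6 were 2-fold apart in either direction. Over all genes, 2.65 percent were at least 2-fold lower and 1.89 percent higher at 3 h, and 3.22 percent lower and 5.6 percent higher at 6 h. Since the ratios chose the genes, nothing is read from these counts.

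The effect of enzastaurin over the 3 times, fitted with limma with the time point as a block, called 4 of 6838 genes (0.0585 percent at an adjusted p under 0.05). In limma 370 of all genes had an unadjusted p under 0.05. Whether a receptor passed is not given, since its ratios chose it. The mean log2 ratios of the other fitted receptors were -0.27 for RXRA (SE 0.31), -0.39 for RXRB (SE 0.35), 0.17 for RARA (SE 0.32), 0.48 for PPARD (SE 0.32) and 0.08 for ESRRA (SE 0.33). Several of these signs rest on 1 time. Without the 12 h pair the mean was 0.069 for RXRB and -0.0024 for RARA, and without the 3 h pair it was -0.29 for ESRRA. The mean for THRA, outside the fit, was 0.19, and it was -0.051 without the 6 h pair. When the 3 h pair was left out of the fit, 247 genes were called (3.61 percent), 1.54 percent higher with enzastaurin and 2.08 percent lower. The mean log2 ratio of VDR at these times was -2.18 (2 ratios). This fit has 1 residual degree of freedom, so its errors draw mainly on the variance prior shared by all genes. It was planned because earlier results of these data showed the 3 h pair to differ. Its calls, here and in the lists below, are therefore not independent of that choice.

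**Figure D3:**
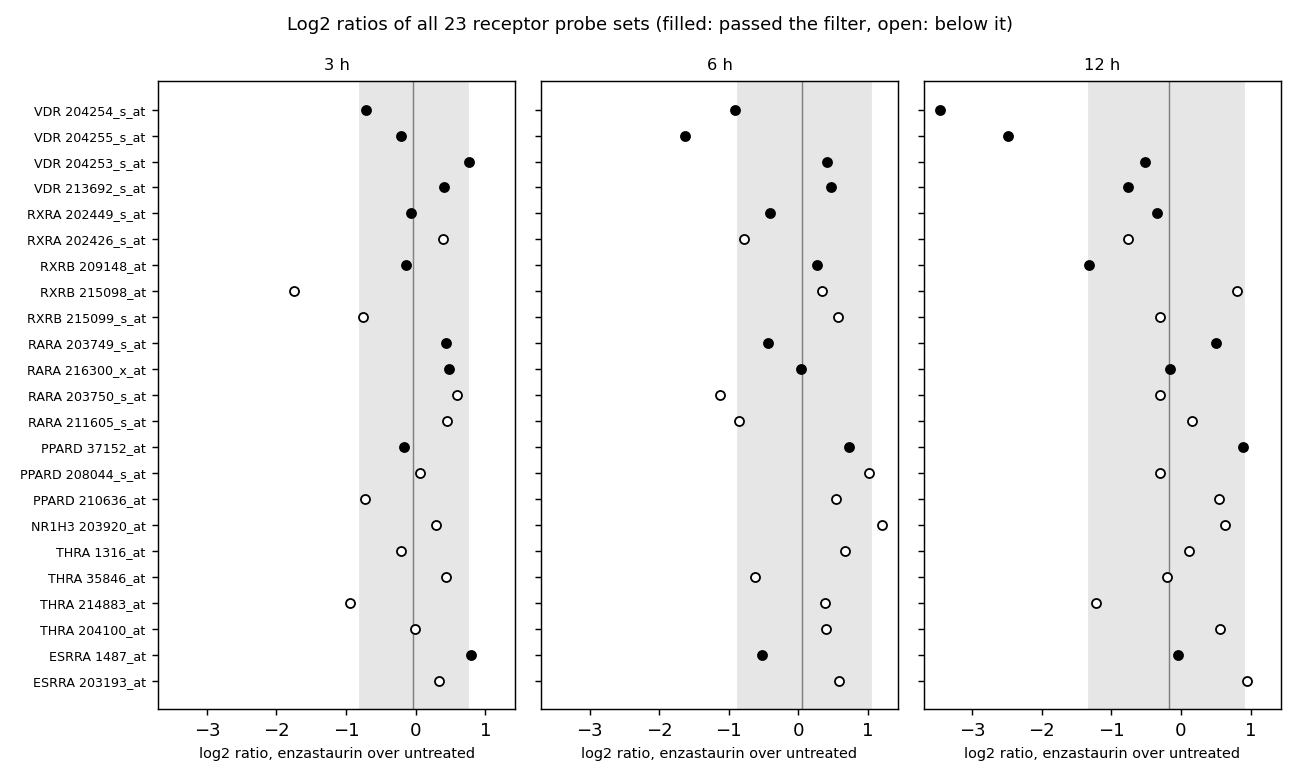
Log2 ratio of enzastaurin over untreated cells at 3, 6 and 12 h for all 23 probe sets, 1 row each, filled where the probe set passed the filter and open where it did not; the grey band spans the 5th to the 95th percentile of the 6838 kept genes and the line their median. At 12 h the strong VDR probe sets, at -3.46 and -2.48, lie left of the band, which starts at -1.32.

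The receptors were also compared between 12 h and 3 h, over both treatments together. The choice of genes used the ratios between treatments and not this contrast, but both rest on the same array values. The differences of the receptors are therefore not independent of the choice. None of 6838 genes passed in limma (0 percent), 148 had an unadjusted p under 0.05, and the 6 receptors all had an adjusted p of 0.999. VDR had the largest difference, with a geometric mean intensity of 206 at 12 h and 437 at 3 h (log2 difference -1.08, SE 0.58, 95 percent interval -2.35 to 0.18). It joins a 12 h minus 3 h difference of -2.46 in enzastaurin cells and of 0.29 in untreated cells. RXRB had -0.26 (interval -1.21 to 0.69), made of -0.86 in enzastaurin cells and 0.33 in untreated cells. The other 4 receptors had differences between -0.01 and 0.23, and their intervals reached from -0.87 at the lowest to 1.08 at the highest. In this fit any treatment effect that is unequal across times adds to the error.

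The genes whose pattern over the 6 arrays was most like that of VDR on 204254_s_at were MRPL16, a mitochondrial ribosomal protein (Pearson r = 0.996 over 6 arrays), TYW1, a tRNA-modifying enzyme (0.996), RAD51C of homologous recombination (0.994), ALAD of heme synthesis (0.992) and RRS1, a ribosome assembly factor (0.991). They were picked as the highest of 6838 correlations over arrays that share treatments and times, so the values are a description. Each had its lowest value on the 12 h enzastaurin array, and each had every enzastaurin array below every untreated array. MRPL16 was at 776, 712 and 380 in enzastaurin-treated cells, against 912, 873 and 1075 in untreated cells. ALAD was at 242, 242 and 94.7 in enzastaurin-treated cells, against 333, 289 and 348 in untreated cells. Their 12 h log2 ratios, from -0.61 for TYW1 to -1.93 for RRS1, were smaller than the -3.46 of VDR. Among the other receptors, log2 intensity correlated with that of VDR at 0.87 for RXRB and 0.50 for RXRA, and at -0.05, -0.52 and -0.72 for ESRRA, RARA and PPARD.

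**Figure D4:**
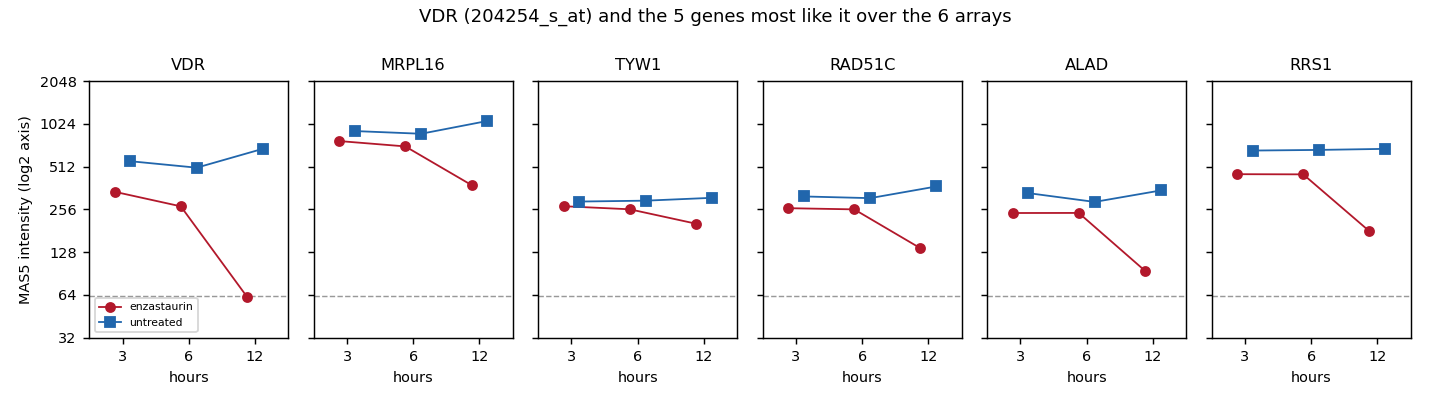
MAS5 intensity on a log2 axis against hours for VDR and the 5 genes with the most similar pattern, with enzastaurin arrays as red circles, untreated arrays as blue squares and the filter of 63.3 as a dashed line; each point is 1 array. All 6 genes have their lowest point at 12 h with enzastaurin, and VDR has the widest 12 h gap (62.1 against 684).

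Genes around the receptors were then examined from lists of ligand metabolism, targets, partners and coregulators. Over the 3 times none of these genes passed the test in limma. At 6 h and 12 h, 5 of the 65 list genes kept by the filter passed it, 4 higher and 1 lower, beside 3.61 percent of all genes. Of 8 vitamin D metabolism genes, 4 were kept. PDIA3, an ER protein disulfide isomerase that has also been described as a membrane-associated binding protein for vitamin D, was lower at 6 h and 12 h (log2 ratio -2.56, SE 0.32, adjusted p = 0.000152 in limma). It had 809, 180 and 139 in enzastaurin-treated cells, against 871, 1062 and 817 in untreated cells. CUBN is an uptake receptor for carried vitamin D, and CYP27A1 is a hydroxylase that can act on vitamin D. They had mean log2 ratios over the 3 times of 0.62 and 0.19 and did not pass. CUBN passed the filter only through the enzastaurin arrays. It had 60.4, 115 and 127 in enzastaurin-treated cells, against 65.0, 134 and 27.6 in untreated cells. Without the 12 h pair, whose untreated value was near background, the CUBN mean was -0.17. CYP24A1, which breaks down vitamin D and is the best known VDR target, lay near background at 18.9 to 25.3 with enzastaurin and 8.63 to 27.1 in untreated cells. It was named after its values were seen.

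Of 23 vitamin D target genes 22 had a probe set and 6 were kept. At 6 h and 12 h 3 passed the test, each higher with enzastaurin, beside 1.54 percent of all genes called higher; the list was written with earlier results of these data known, so its direction is not independent evidence. KLF4, a transcription factor, passed the filter only through the enzastaurin arrays, at 78.8, 94.7 and 100.2 in enzastaurin-treated cells, against 75.0, 48.1 and 32.5 in untreated cells. The probe sets of TXNIP, an inhibitor of thioredoxin, disagreed, with mean log2 ratios over the 3 times of 0.12, -0.17 and -0.01. These genes were named after their values were seen. IGFBP3, an IGF-binding protein, had 546, 1364 and 2140 in enzastaurin-treated cells, against 367, 165 and 238 in untreated cells (log2 ratio at 6 h and 12 h 3.11, SE 0.30, adjusted p = 1.43e-05 in limma), and its second kept probe set had log2 ratios of 2.05 and 3.08 at these times. GADD45A, a growth arrest gene, had 522, 1609 and 1352 in enzastaurin-treated cells, against 761, 310 and 346 in untreated cells (2.17, SE 0.30, adjusted p = 0.000433 in limma). CDKN1A, an inhibitor of cyclin-dependent kinases, had 1364, 1215 and 692 in enzastaurin-treated cells, against 401, 284 and 386 in untreated cells (1.47, SE 0.34, adjusted p = 0.0202 in limma). The CDKN1A call was lost when the prior took no intensity trend (adjusted p = 0.0731 in limma). All 3 are also known to respond to stress signals. VDR itself was lower on its strong probe sets at 6 h and 12 h. Its weak probe sets were higher at 6 h (log2 ratios 0.41 and 0.47) and lower at 12 h. Neither a link between VDR and these genes nor a cause of their values was tested.

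Whether the effect on these genes grew with time was tested by fitting a slope on log2 hours, which passed in 98 of 6838 genes (1.43 percent). Among the 65 list genes it passed in IGFBP3 (slope 1.30, SE 0.36) and GADD45A (1.25, SE 0.35), both upward with an adjusted p of 0.0314 in limma. In both genes the rise lay mostly between 3 h and 6 h, and the ratio of GADD45A was lower at 12 h than at 6 h. After the kept genes were brought to equal medians, the adjusted p was 0.336 for IGFBP3 and 0.366 for GADD45A in limma, and with quantile normalization 0.208 and 0.247. The slopes themselves were no smaller, at 1.38 and 1.36 for IGFBP3 and 1.34 under both scalings for GADD45A.

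Of 20 retinoid genes 5 were kept and none passed. TGM2, a transglutaminase induced by retinoic acid, had the largest mean log2 ratio, 0.52, followed by the surface enzyme CD38 at -0.30 and the retinol transporter STRA6 at 0.11. The other TGM2 probe sets, all near background, had mean log2 ratios of the opposite sign, -0.90, -0.75 and -0.39. CYP26A1, which degrades retinoic acid and is a target of RARA, was named after its values were seen. It had 1490, 1266 and 432 in enzastaurin-treated cells, against 951, 814 and 1241 in untreated cells, higher at 3 h and 6 h and lower at 12 h (log2 ratios 0.65, 0.64 and -1.52). Of 15 LXR targets 7 were kept. SMPDL3A, a phosphodiesterase, was higher at 6 h and 12 h (log2 ratio 1.33, SE 0.34, adjusted p = 0.0336 in limma), at 146, 337 and 344 in enzastaurin-treated cells, against 145, 136 and 135 in untreated cells. That call too was lost without the intensity trend (adjusted p = 0.0570 in limma). The cholesterol transporter ABCG1 (mean log2 ratio -0.85) and MYLIP, which degrades the LDL receptor (-0.54), lay on the other side and did not pass. ABCG1 had 100, 56.6 and 24.9 in enzastaurin-treated cells, against 144, 78.9 and 72.4 in untreated cells. It passed the filter only through the untreated arrays. The other ABCG1 probe set, below the filter, had a mean log2 ratio of 0.09.

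**Figure D5:**
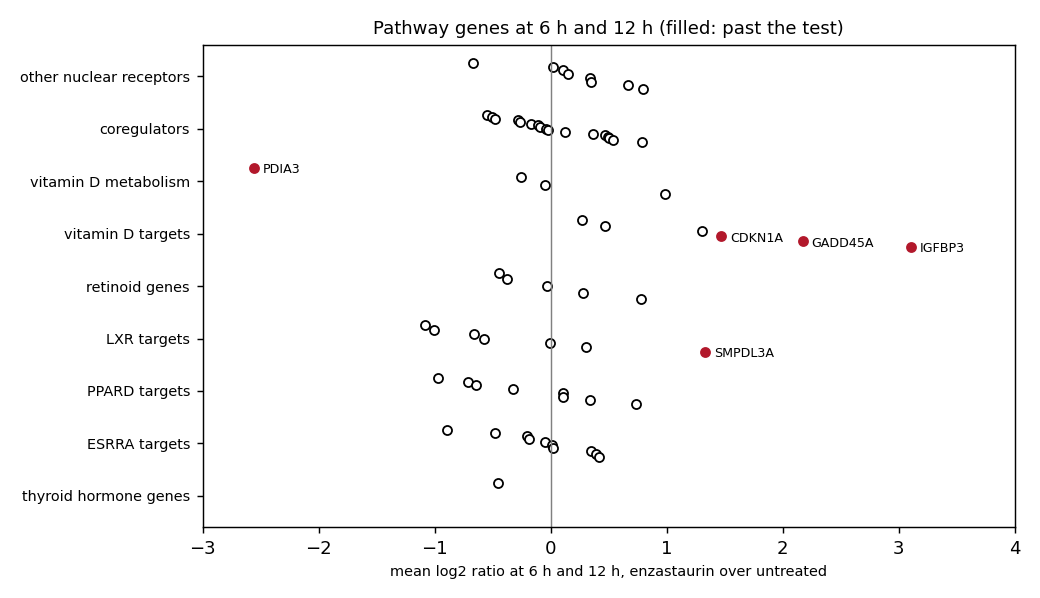
Mean log2 ratio of enzastaurin over untreated cells at 6 h and 12 h for the 65 kept genes of 9 lists, 1 point per gene and list, filled red where the gene passed the test in limma. IGFBP3, GADD45A, CDKN1A and SMPDL3A lie to the right and PDIA3 to the left at -2.56.

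No kept gene of the other lists passed. Among 8 kept PPARD targets the largest mean log2 ratios were those of catalase (CAT, -0.66), the lipid droplet protein PLIN2 (-0.49) and the fatty acid dehydrogenase ACADVL (0.45). Among 10 kept ESRRA targets they were those of TFAM, which maintains mitochondrial DNA (-0.57), the deacetylase SIRT3 (0.31) and the ATP synthase subunit ATP5F1B (-0.22). SLC16A10, a transporter of aromatic amino acids and thyroid hormone, was the 1 kept gene of its list (-0.37). The median over the kept genes was -0.09 for PPARD targets and -0.00 for ESRRA targets, beside -0.05 over all kept genes.

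Of 39 further nuclear receptors 31 had a probe set and 8 were kept, of which none passed. The glucocorticoid receptor NR3C1, the target of dexamethasone in myeloma, had 2240, 2577 and 3011 in enzastaurin-treated cells, against 2422, 1518 and 1697 in untreated cells. Its log2 ratios were -0.11, 0.76 and 0.83 (mean 0.49, SE 0.23, adjusted p = 0.909 in limma), and all 4 of its probe sets were higher with enzastaurin at 6 h and 12 h. At these times its adjusted p was 0.0691 in limma. The circadian repressor NR1D2 and the germ cell receptor NR6A1 had mean log2 ratios of -0.44 and 0.37. NR1D2 passed the filter only through the untreated arrays. It had 83.2, 48.7 and 60.0 in enzastaurin-treated cells, against 81.1, 93.2 and 79.7 in untreated cells. Its enzastaurin values at 6 h and 12 h were thus near background. Of 22 coregulators, the proteins through which receptors switch genes on and off, 17 were kept and none passed. The corepressor subunit TBL1XR1 (-0.71), the acetyltransferase EP300 (0.36) and the coactivator NCOA2 (-0.33) had the largest mean log2 ratios, and the median was -0.11.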

How the data were processed

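The deposited table holds linear intensity values per probe set, which come from MAS5 according to the submitters' processing notes. Its version and scaling are not stated in the labels. RNA was biotin-labelled after oligo-dT priming, per the labels' protocols. All 6 columns were matched to samples through their labels. Of 22277 probe sets, 62 were controls, 19064 had 1 symbol, 1043 several and 2108 were not listed. Symbols were updated through the RefSeq gene table.

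Intensities were floored at 1 and log2 transformed. The brighter 50 percent of probe sets by mean log2 value were kept, with the brightest for each gene, leaving 6838 genes. Fits used limma 3.58.1 in R 4.3.3 (lmFit, eBayes with trend) with Benjamini-Hochberg adjustment and were tested on simulated data. Residual degrees of freedom were 2, with a prior of 9.26, or 1 with 16.86 for the 6 h and 12 h pairs; for the slope the errors rest on the prior. Nothing in the labels says that arrays came from separate cultures, so p-values measure the spread between arrays, which may be technical. In the fits of the mean enzastaurin effect this is the spread of the ratios between times, moderated by the prior. An effect that changes with time adds to it.

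All receptors were named, with the 5 genes most like VDR and, from each list, genes past a test and the 3 largest mean ratios. Members, lists and the fit at 6 h and 12 h were chosen with earlier results of these data known. The slope was added after seeing the data. Alternatives were scaling, offset, filter, prior, probe set choice, time block and leaving out pairs. Promoter and protein sequences were not used here.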

Additional observations from a re-analysis of the deposited data

Results flagged for a closer look

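The enzastaurin effect on IGFBP3 and GADD45A differed between times by the slope test, at 1.30 and 1.25 log2 units per doubling of hours in limma (adjusted p = 0.0314 for both). The log2 ratios of IGFBP3 over the 3 times were 0.57, 3.05 and 3.17, and GADD45A had -0.54, 2.38 and 1.97. Most of the change thus lay between 3 h and 6 h, so the slopes do not describe a steady rise with each doubling. Neither slope passed with equal medians or quantile normalization, although both were slightly larger there, at 1.38 and 1.36 for IGFBP3 and 1.34 under both for GADD45A.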

How the results depend on the processing

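Each group holds 1 array, so times stand in for replicates. The reported fit pairs the arrays by time point. Over 3 times the 4 calls became 1 with quantile normalization, 1 without the filter, 0 without the intensity trend, 2 without the time point and 0 to 247 when 1 pair was left out. The 247 calls at 6 h and 12 h became 548 with equal medians of the kept genes, 564 without the filter and 133 without the trend. The 98 slopes became 0 with either scaling, in limma, where 675 and 722 genes had an unadjusted p under 0.05. The VDR mean log2 ratio, on the strongest probe set or as the median over its probe sets, stayed below 0, between -2.18 and -0.59. On the other VDR probe sets taken singly it was -1.44 (204255_s_at), 0.22 (204253_s_at) and 0.04 (213692_s_at). The PPARD difference of 12 h over 3 h was 0.021 and 0.027 with equal medians and quantile normalization, against -0.01 as reported. With 1 pair left out, mean log2 ratios ran from -0.13 to 0.67 for NR6A1, -0.17 to 1.05 for CUBN, -0.052 to 0.63 for CYP27A1, -0.15 to 0.51 for STRA6 and -0.018 to 0.52 for SIRT3. Among the receptors they ran from -0.73 to 0.069 for RXRB, -0.0024 to 0.47 for RARA, -0.29 to 0.38 for ESRRA and -0.051 to 0.39 for THRA. The causes were not tested. Signals near background limit NR1H3, THRA and RXRA.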
